A study of Mus musculus with 16 samples.

Results

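AP-1 is a family of transcription factors with a basic leucine zipper (bZIP), and its members were read here from the RNA of regulatory T cells (Tregs) and of whole skeletal muscle. The set was chosen by gene name: the rows of Fos, Fosb, Fosl1, Fosl2, Jun, Junb, Jund, Batf, Atf3 and Maff, 10 of the 52997 gene symbols of the count table, in all 7 groups of libraries. Levels are counts scaled by the library total (CPM).

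The mice were on a B6 background, 6 to 8 weeks old, and either carried the mTreg24 T cell receptor transgene (Tg) or were negative for it (WT). Cardiotoxin, a snake venom toxin that destroys muscle fibres, was given to injure muscle. Tregs, the Foxp3-expressing T cells that hold immune responses in check, came from Foxp3-GFP reporter mice, 3 days after injury in the injured groups. The Treg groups, with 2 libraries each, were Tg muscle, WT muscle, spleen of injured Tg mice, spleen of Tg mice without injury, and spleen of WT mice, which the design text, but no sample label, places 3 days after injury. The sort took Vβ8-positive Tregs from Tg mice and total Tregs from WT mice, so genotype and gate cannot be told apart. Whole muscle of Tg and WT mice was taken 8 days after injury, with 3 libraries per genotype, and its labels name no Foxp3 reporter. The labels do not say whether libraries came from single animals or from pools, and the spread behind the p-values may therefore be technical.

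AP-1 binds DNA as a dimer of leucine zipper proteins. Fos proteins cannot pair with themselves and need another zipper protein, commonly a Jun protein. Jun proteins can also pair with each other. Batf, Atf3 and the small Maf protein Maff join Jun, Fos or other zipper proteins in dimers of their own. Fos, Fosb, Jun, Junb and Atf3 are early response genes whose RNA appears within minutes of growth factor, antigen receptor or stress signals, also in cells that are being freed from a tissue. In T cells, Batf with a Jun partner and Irf4 occupies composite sites and is needed by Tregs of non-lymphoid tissue.

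The stretches that lie just before the transcription start are shown for 5 of the 7 members that were higher in muscle Tregs of both genotypes, so that their letters can be set beside the known AP-1 and cyclic AMP response sequences. They are the 120 bases before the start in RefSeq promoters of build GRCm38.p6, 5′ to 3′ on the gene's strand. Capitals mark TGACG, the half-site of the cyclic AMP response element, or TGACNTCA, in either orientation, so that a match on the other strand reads CGTCA.
Fos, chr12:85473770-85473889, plus strand: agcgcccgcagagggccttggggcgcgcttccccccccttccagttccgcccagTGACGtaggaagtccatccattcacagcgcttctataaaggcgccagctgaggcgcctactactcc
Fosb, chr7:19310046-19310165, minus strand: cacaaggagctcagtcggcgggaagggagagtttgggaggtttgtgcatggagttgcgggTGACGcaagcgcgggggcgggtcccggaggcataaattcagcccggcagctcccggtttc
Jun, chr4:95052223-95052342, minus strand: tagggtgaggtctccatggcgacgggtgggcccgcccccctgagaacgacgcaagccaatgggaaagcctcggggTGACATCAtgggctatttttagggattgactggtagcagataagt
Junb, chr8:84978749-84978868, minus strand: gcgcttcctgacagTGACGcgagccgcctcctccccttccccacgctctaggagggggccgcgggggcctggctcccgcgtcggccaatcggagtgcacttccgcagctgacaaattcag
Atf3, chr1:191183334-191183453, minus strand: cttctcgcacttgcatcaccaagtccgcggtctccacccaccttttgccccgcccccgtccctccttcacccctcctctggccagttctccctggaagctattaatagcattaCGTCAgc
Annotated exons of the same gene cover 6 bases of the Fosb stretch and 7 bases of the Atf3 stretch, at the end of each, and the marked CGTCA of Atf3 lies among them. The Atf3 stretch belongs to a start inside the gene span given below. The stretches before Fosl2 and Batf overlap such exons by more than 30 bases and are not shown.

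Of the 10 members, 9 had a RefSeq promoter, and 250 bases before each start were searched on both strands, except for TATAAA, which was searched on the gene's strand alone. Maff has several entries, and a member counts where any of its windows holds the letters. The Jund window ends at 70697738, well before the gene start of 70698949 used below. It does not describe the bases just before that start. The AP-1 consensus TGAGTCA was in 0 of the 9 members' windows, against 4.46% of all 32851 RefSeq promoters and 2.98% of the 11719 promoters of genes tested in Tregs. Further shares are given in that order, over all promoters and over those of tested genes. The full cyclic AMP response element TGACGTCA was in 1, Maff, against 1.55% and 2.62%. The CArG box, the site of serum response factor, was in 0, against 1.47% and 1.06%. A kB site was in 4 (Fos, Fosb, Fosl2 and Maff), against 5.93% and 6.89%. TATAAA was in 1, Fos, against 7.59% and 3.70%, and the GC box GGGCGG was in 7, all but Junb and Jund, against 32.7% and 56.5%. Shorter forms were added after the sequences had been read. TGACGT was in 4 (Fos, Batf, Atf3 and Maff), against 6.47% and 9.98%, TGACNTCA in 2 (Jun and Maff), against 7.49% and 6.17%, and TGACG in 6 (Fos, Fosb, Junb, Batf, Atf3 and Maff), against 17.8% and 26.9%. TGACGTCA is itself a match to TGACGT, TGACNTCA and TGACG, so these counts overlap. A match describes the letters of the window and is no evidence of a bound site. A missing match says nothing of bases outside the window. At shares as low as those of TGAGTCA and the CArG box, 0 of 9 members does not set them apart from other genes.

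The Treg libraries held 1986700 to 9116800 counts and the whole muscle libraries 5095999 to 7075420. WT muscle Treg replicate 2 was the deepest library and had the fewest genes with counts, 17081. WT muscle Treg replicate 1 had 20213 such genes at 4625354 counts. A floor of 3 counts per library equals 0.329 to 1.51 CPM in Tregs, and it covers counting error only, because the reads carry no molecular identifiers. The summed level of 6 Treg markers (Foxp3, Il2ra, Ctla4, Ikzf2, Cd3e, Cd4) was 6709 to 7218 CPM in Tg muscle, 6116 to 6492 CPM in WT muscle, and 4410 to 4663 CPM over the 6 spleen libraries. Trbv13-2, a Vβ8 segment, took 96.6% to 98.4% of Trbv counts in Tg Tregs and 4.13% to 11.8% in WT Tregs, and the sort itself selects for it. The alpha segment Trav9-4 took 84.0% to 90.7% of Trav counts in Tg muscle Tregs. It took 61.6% to 71.4% in injured and 64.9% to 68.2% in uninjured Tg spleen Tregs. Receptor make-up thus differed between Tg muscle and Tg spleen, and its part in the Tg comparison of tissues was not tested.

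Of the members, 7 were higher in muscle than in spleen Tregs in both genotypes: Fos, Fosb, Fosl2, Jun, Junb, Batf and Atf3. Jund and Maff had higher means in muscle but did not pass the test in either genotype, and Fosl1 was too rare to be tested. In Tg muscle against injured Tg spleen Tregs, 7 of 9 members tested passed an adjusted p of 0.05 in edgeR's quasi-likelihood test, all higher, where 7.38% of 13188 genes were called, 4.83% higher and 2.55% lower. In WT muscle against WT spleen Tregs the same 7 passed, all higher, where 16.2% of genes were called, 9.38% higher and 6.87% lower. The median log2 fold change of the 9 members was 3.48 in the Tg comparison and 2.60 in the WT comparison, against -0.04 over all genes tested in each. These medians stand unchanged with Atf3 at its bound in WT. In bulk RNA, fewer cells of a type and less RNA per cell cannot be told apart.

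**Figure D1:**
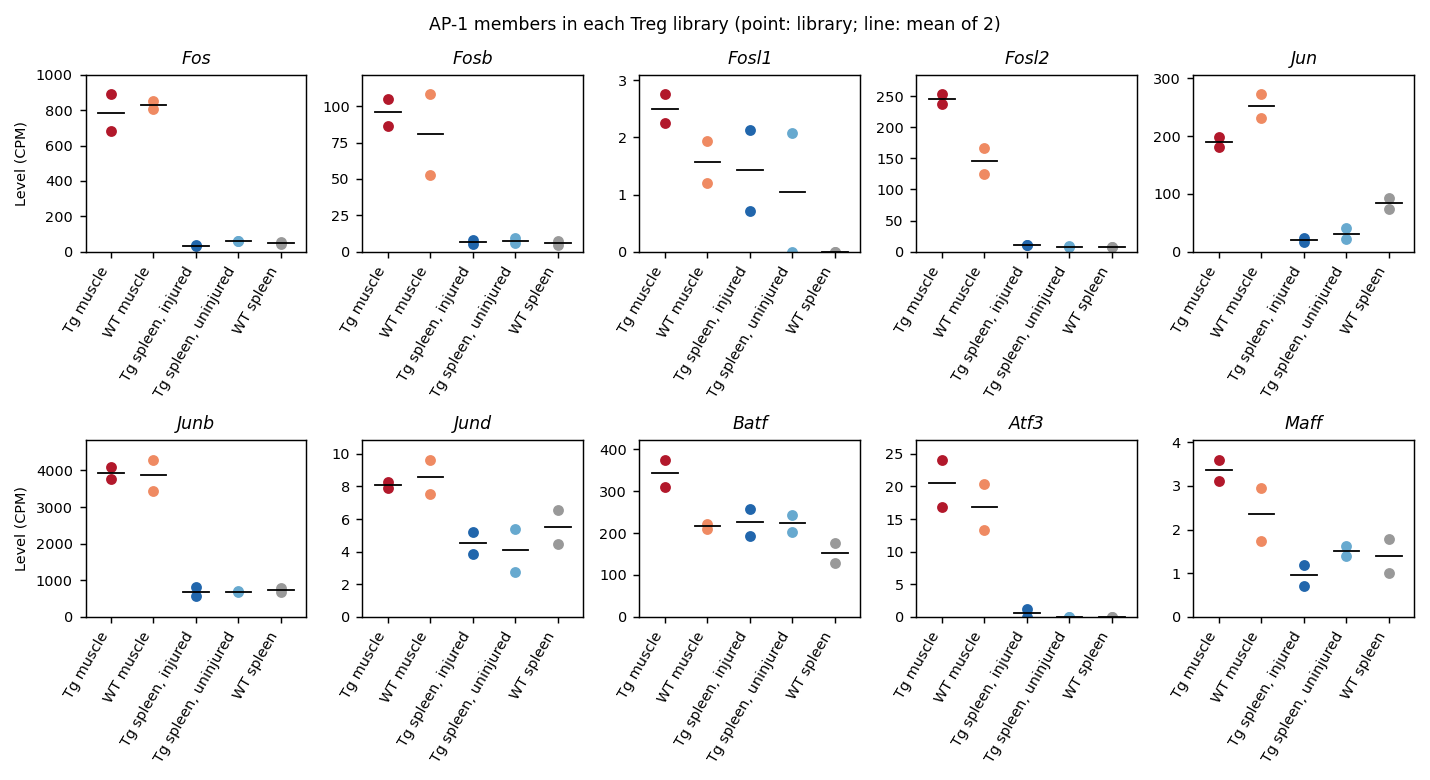
Level of each AP-1 member in CPM (linear axes that start at 0, 1 panel per gene) in the 10 Treg libraries, with 1 point per library and a line at the mean of 2. Fos, Fosb, Fosl2, Jun, Junb and Atf3 stand apart in the 4 muscle libraries, whereas WT muscle and Tg spleen values of Batf share a range.

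Fos, Fosb and Fosl2 had the widest gap between muscle and spleen among the members with counts in every library. Fos (GRCm38 chromosome 12, 85473890 to 85477273) encodes c-Fos, an early response partner of Jun that activates transcription. It had 891 and 682 CPM in Tg muscle Tregs and 854 and 804 CPM in WT muscle Tregs, against 36.6 and 29.8 CPM in injured Tg spleen, 60.3 and 57.4 CPM in uninjured Tg spleen and 45.8 and 55.7 CPM in WT spleen Tregs. Each muscle library exceeded each spleen library by more than 10-fold. The log2 fold change was 4.76 ± 0.18 (SE) in the Tg comparison (edgeR adjusted p = 1.23e-09) and 4.20 ± 0.18 in the WT comparison (edgeR adjusted p = 5.28e-09).

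Fosb (chromosome 7, 19302696 to 19310051), an early response Fos protein whose splice form ΔFosB is long-lived, had 105 and 86.5 CPM in Tg muscle Tregs and 108 and 53.0 CPM in WT muscle Tregs. Its spleen values were 5.27 and 8.27 CPM in injured Tg, 9.36 and 5.66 CPM in uninjured Tg and 7.55 and 4.89 CPM in WT Tregs. Muscle and spleen did not overlap, although the WT muscle libraries lay far apart from each other. Muscle exceeded spleen on the log2 scale by 4.01 ± 0.38 in Tg (edgeR adjusted p = 1.15e-05) and 3.93 ± 0.40 in WT (edgeR adjusted p = 1.51e-05).

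Fosl2 (chromosome 5, 32135801 to 32157842) encodes Fra-2, a Fos protein without the strong activation domain of c-Fos. It had 237 and 253 CPM in Tg muscle Tregs and 167 and 125 CPM in WT muscle Tregs, against 10.3 and 10.2 CPM in injured Tg, 6.94 and 9.17 CPM in uninjured Tg and 7.05 and 6.66 CPM in WT spleen Tregs. The spleen values lay close together in all 3 groups. On the log2 scale the fold was 4.78 ± 0.21 in Tg (edgeR adjusted p = 5.99e-09) and 4.59 ± 0.23 in WT (edgeR adjusted p = 1.79e-08).

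Fosl1 (chromosome 19, 5447547 to 5455946), which encodes Fra-1, had 2.76 and 2.25 CPM in Tg muscle Tregs and 1.95 and 1.21 CPM in WT muscle Tregs. Spleen values ran from 0 to 2.13 CPM, with 0 counts in both WT spleen libraries. It was not tested, since its counts fell below the filter. In GENCODE annotation 57.2% of its exon bases also belong to Ccdc85b on the opposite strand, and reads of the pair cannot be told apart because the libraries do not mark strand.

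Among the Jun proteins, common partners of Fos proteins, Junb was the most abundant member in all Treg groups. Junb (chromosome 8, 84974484 to 84978718), a Jun protein that activates transcription less strongly than c-Jun, had 4097 and 3763 CPM in Tg muscle Tregs and 3429 and 4299 CPM in WT muscle Tregs. In spleen it had 821 and 563 CPM in injured Tg, 696 and 689 CPM in uninjured Tg and 778 and 678 CPM in WT Tregs. The muscle values of the 2 genotypes overlapped, and all lay above the spleen values. Junb was higher on the log2 scale by 2.70 ± 0.18 in Tg (edgeR adjusted p = 6.77e-07) and 2.60 ± 0.18 in WT (edgeR adjusted p = 6.39e-07).

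Jun (chromosome 4, 95049034 to 95052222) encodes c-Jun, the classical partner of c-Fos. It had 181 and 198 CPM in Tg muscle Tregs and 272 and 231 CPM in WT muscle Tregs, against 22.8 and 16.3 CPM in injured Tg, 40.2 and 21.6 CPM in uninjured Tg and 93.6 and 73.5 CPM in WT spleen Tregs. Both Tg spleen groups lay below WT spleen without overlap. Jun was higher in muscle by a log2 fold of 3.48 ± 0.27 in Tg (edgeR adjusted p = 2.97e-06) and 1.78 ± 0.25 in WT (edgeR adjusted p = 0.00025).

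Jund (chromosome 8, 70698949 to 70700616), the Jun protein made steadily in resting cells, had 8.28 and 7.89 CPM in Tg muscle Tregs and 7.57 and 9.65 CPM in WT muscle Tregs, against 2.77 to 6.54 CPM over the 6 spleen libraries. The muscle values lay above the spleen values, but the difference did not pass the test. Its log2 fold change was 1.03 ± 0.56 in Tg (95% interval -0.17 to 2.23, edgeR adjusted p = 0.333) and 0.87 ± 0.56 in WT (95% interval -0.33 to 2.07, edgeR adjusted p = 0.329). The intervals include both 0 and a fold as large as that of Batf. After the low level of Jund had been seen, the annotation was searched for shared exons: 52.6% of its exon bases lie opposite the antisense gene Gm11175, which had 0 counts in the 10 Treg libraries, where Jund had 281. The libraries do not mark strand, and how the counting treated reads in shared bases is not given in the sources used here. The level of Jund may therefore be understated.

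Batf, Atf3 and Maff pair with Jun or Fos proteins without belonging to either family. Batf (chromosome 12, 85686669 to 85709087), which lacks an activation domain and works with Irf4, showed the smallest fold of the members that passed. It had 375 and 309 CPM in Tg muscle Tregs and 210 and 222 CPM in WT muscle Tregs, against 257 and 193 CPM in injured Tg, 204 and 243 CPM in uninjured Tg and 176 and 129 CPM in WT spleen Tregs. Within each genotype muscle lay above spleen, but WT muscle values fell within the range of Tg spleen. Batf was higher in muscle on the log2 scale by 0.80 ± 0.18 in Tg (edgeR adjusted p = 0.0133) and 0.69 ± 0.18 in WT (edgeR adjusted p = 0.0195).

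Leaving out single libraries ended the Batf calls. In the Tg comparison the log2 fold change was 0.66 (edgeR adjusted p = 0.116) without Tg muscle replicate 1 and 0.61 (0.197) without injured Tg spleen replicate 2. In the WT comparison it was 0.61 (0.0731) without WT muscle replicate 2, 0.49 (0.211) without WT spleen replicate 2, and 0.69 (0.0713) with only the compared groups in the fit. The direction held in each of these, and the number of members higher in both genotypes was then 6 in place of 7.

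Atf3 (chromosome 1, 191170296 to 191218039), a stress-induced factor that often represses its targets, had 24.1 and 16.9 CPM in Tg muscle Tregs and 20.3 and 13.3 CPM in WT muscle Tregs. In spleen it was at or near 0 counts: injured Tg libraries had 1.20 and 0 CPM (5 and 0 counts), and both uninjured Tg and both WT libraries had 0 counts. The log2 fold change in Tg was 5.23 ± 0.84 (edgeR adjusted p = 0.00171). In WT the level was at least 15.4-fold higher in muscle, set against a floor of 3 counts per spleen library (edgeR adjusted p = 0.000604).

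Maff (chromosome 15, 79346621 to 79359076), a small Maf protein without an activation domain, had 3.10 and 3.60 CPM in Tg muscle Tregs and 1.73 and 2.96 CPM in WT muscle Tregs. Spleen libraries had 0.709 to 1.78 CPM, and WT muscle overlapped WT spleen. Maff had a log2 fold change of 1.98 ± 0.95 in Tg (95% interval -0.04 to 4.01, edgeR adjusted p = 0.256) and 0.89 ± 0.92 in WT (95% interval -1.08 to 2.87, edgeR adjusted p = 0.565).

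**Figure D2:**
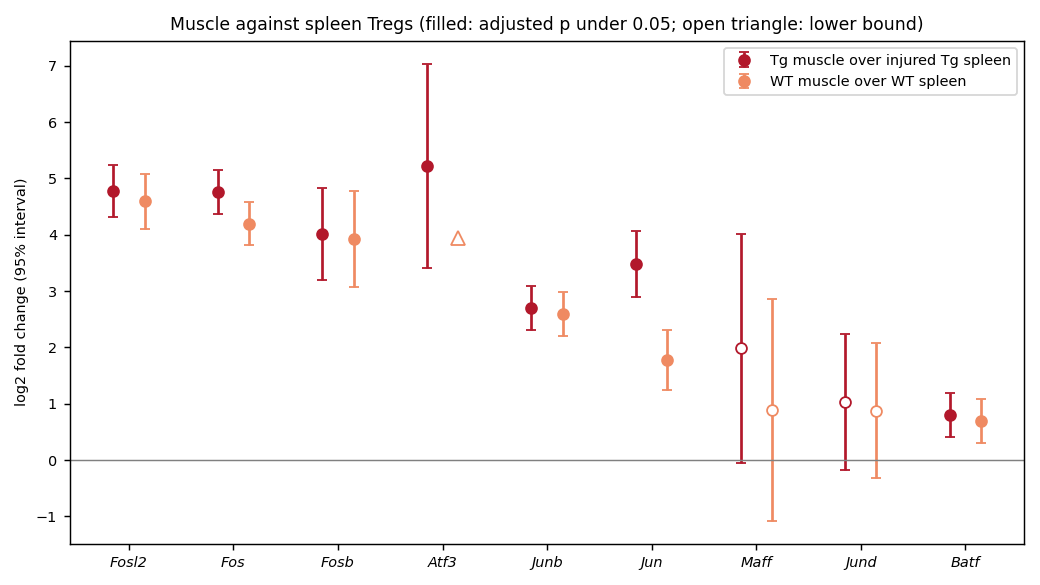
log2 fold change with its 95% interval for the 9 members tested, for Tg muscle over injured Tg spleen Tregs and for WT muscle over WT spleen Tregs. Filled points passed an adjusted p of 0.05, and the open triangle is the lower bound of Atf3 in WT (log2 3.95). Fosl2, Fos and Fosb lie near or above 4 in both comparisons, Junb near 2.6, Batf below 1, and Jun at 3.48 in Tg and 1.78 in WT.

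Tissue and any difference in handling between muscle and spleen cannot be told apart in these folds. How muscle and spleen were brought into suspension is not given in the sources used here, and no Tregs of uninjured muscle were analysed. Of 31 tested genes known to respond to dissociation and heat, with the members left out, 21 were higher and 0 lower in Tg muscle against injured Tg spleen, and 21 were higher and 1 lower in WT muscle against WT spleen. Their median log2 fold changes were 1.11 in the Tg comparison and 1.00 in the WT comparison. The shares over all genes tested were 4.83% higher and 2.55% lower in Tg, and 9.38% higher and 6.87% lower in WT. The summed level of the 32 genes of that list was 15907 to 17416 CPM in Tg muscle and 12661 to 14937 CPM in WT muscle Tregs, against 5750 to 5814 CPM in injured Tg, 6013 to 6226 CPM in uninjured Tg and 5398 to 6262 CPM in WT spleen Tregs. Hspa1a, an inducible heat shock protein of the Hsp70 family, had 154 to 171 CPM in Tg muscle and 69.2 to 128 CPM in WT muscle Tregs, against 0 to 1.18 CPM in injured Tg spleen and 0 counts in the WT spleen libraries. In WT muscle it was therefore at least 90.6-fold higher. Hspa1b, its near-identical neighbour gene, had 25.2 to 28.3 CPM in Tg muscle and 15.6 to 16.2 CPM in WT muscle Tregs, against 0 to 0.473 CPM in injured Tg spleen, which lies below the floor, and 0 counts in WT spleen. It was at least 14.6-fold higher in WT muscle. The part of dissociation in the folds of the AP-1 members was not tested.

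The metal-binding metallothionein genes of that list, Mt1 and Mt2, were higher in the WT comparison, Mt1 by 4.80 ± 0.60 on the log2 scale (edgeR adjusted p = 8.00e-05) and Mt2 at least 3.09-fold (edgeR adjusted p = 0.0304). In the Tg comparison they did not pass, with 1.55 ± 0.46 for Mt1 (edgeR adjusted p = 0.056) and 3.18 ± 1.37 for Mt2 (edgeR adjusted p = 0.203). Zfp36l1, an RNA-decay factor, was higher by 0.96 ± 0.20 in Tg (edgeR adjusted p = 0.00955) and did not pass in WT (0.40 ± 0.20, edgeR adjusted p = 0.211). Socs3, a cytokine signalling brake, did not pass in either, with 0.83 ± 0.25 in Tg and -0.21 ± 0.25 in WT (edgeR adjusted p = 0.074 and 0.617).

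Summed markers of macrophages and of B cells were lower in muscle than in spleen Tregs or overlapped with them. The 12 macrophage and monocyte markers summed to 393 to 423 CPM in Tg muscle and 263 to 443 CPM in WT muscle Tregs, against 478 to 519 CPM in injured Tg, 370 to 449 CPM in uninjured Tg and 436 to 449 CPM in WT spleen Tregs. Of 11 tested, 0 were higher and 5 lower in Tg, where 4.83% of all genes were higher and 2.55% lower. In WT 1 was higher and 2 lower, where 9.38% of all genes were higher and 6.87% lower. The 1 higher in WT was Itgam, by 2.01 ± 0.44 on the log2 scale (edgeR adjusted p = 0.0058). In Tg Itgam was at -0.75 ± 0.38 (edgeR adjusted p = 0.289). C1qa and C1qc had 0 counts in Tg muscle. The 7 B cell markers summed to 19.3 to 27.5 CPM in Tg muscle and 31.3 to 38.3 CPM in WT muscle, against 64.4 to 124 CPM over the spleen libraries. Fibroblast markers stayed at or below 6.49 CPM in muscle Tregs, with Pdgfra, Col1a2 and Lum at 0 in both genotypes. The 9 muscle fibre and satellite cell markers summed to 11.04 to 13.1 CPM in Tg muscle and 12.8 to 13.4 CPM in WT muscle Tregs, against 7.80 to 17.6 CPM in spleen. Neutrophil markers stayed at or below 4.11 CPM in all Treg libraries.

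The members differed widely in level per length within muscle Tregs. Divided by exon length, Junb led with 1708 ± 103 CPM per kb in Tg muscle and 1679 ± 267 in WT muscle Tregs (SD, n = 2 each). Fos followed with 334 ± 62.8 CPM per kb in Tg and 353 ± 15.1 in WT, then Batf with 243 ± 33.5 in Tg and 154 ± 6.08 in WT, and Jun with 59.4 ± 3.90 in Tg and 78.9 ± 9.23 in WT. Fosl2, Fosb, Atf3, Jund, Maff and Fosl1 came after them, in that order in both genotypes, with 25.3 ± 1.17 CPM per kb of Fosl2 in Tg muscle and 15.1 ± 3.02 in WT muscle. Neighbours whose libraries overlapped were Maff and Fosl1 in both genotypes, and Fosl2 and Fosb as well as Fosb and Atf3 in WT. The places of Jund and Fosl1 carry the limit of their shared exons given above.

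In spleen Tregs Junb led as well, with 301 ± 79.2 CPM per kb in injured Tg, 301 ± 2.05 in uninjured Tg and 316 ± 30.8 in WT, and Batf came next with 160 ± 32.1, 159 ± 19.8 and 109 ± 23.5 in the same groups. Fos followed in both Tg spleen groups (14.1 ± 2.06 and 25.0 ± 0.878 CPM per kb, injured and uninjured), whereas in WT spleen Jun (26.2 ± 4.46) and Fos (21.6 ± 2.99) had overlapping libraries.

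The make-up of the summed AP-1 RNA thus differed between tissues. The plain sum of the 10 genes was 5623 ± 426 CPM in Tg muscle and 5417 ± 487 CPM in WT muscle Tregs, against 995 ± 234 CPM in injured Tg, 1028 ± 7.34 CPM in uninjured Tg and 1035 ± 114 CPM in WT spleen Tregs. Per length, the Fos family took 15.6% ± 1.37 of the sum in Tg muscle and 16.7% ± 2.79 in WT muscle, against 3.55% ± 0.575 in injured Tg, 5.52% ± 0.514 in uninjured Tg and 4.94% ± 1.14 in WT spleen (SD, n = 2 each). Batf took 10.1% ± 0.557 in Tg muscle and 6.69% ± 0.428 in WT muscle, against 33.0% ± 1.12, 31.7% ± 3.14 and 22.6% ± 2.23 in the same spleen groups. The Jun family held 73.9% ± 1.98 in Tg muscle, 76.3% ± 3.34 in WT muscle, 63.4% ± 1.61 in injured Tg, 62.7% ± 2.63 in uninjured Tg and 72.4% ± 1.03 in WT spleen. These shares are descriptions with no test, and a smaller share of Batf in muscle goes with a higher level of it there.

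**Figure D3:**
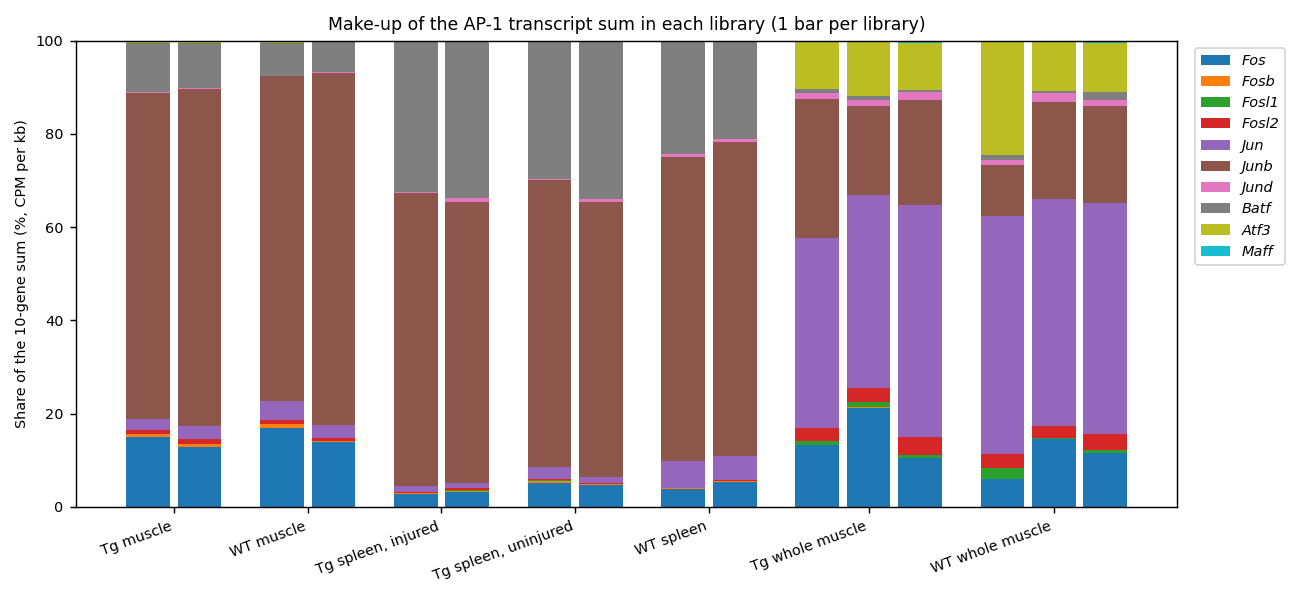
Share of each member in the 10-gene sum (percent, from CPM per kb of exon), with 1 stacked bar for each of the 16 libraries. Junb fills most of each Treg bar, Batf is wider in spleen Tregs and Fos wider in muscle Tregs, and Jun and Atf3 take more of the whole muscle bars.

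Tg and WT muscle Tregs were compared next, which asks whether the transgenic receptor goes with other AP-1 levels in the same injured tissue. Of 9 members tested, 0 passed in edgeR, 2 had an unadjusted p under 0.05, DESeq2 called 0 and limma-voom 1, and 0.318% of all genes were called in edgeR. Fosl2 was 245 ± 11.3 CPM in Tg and 146 ± 29.2 CPM in WT muscle Tregs (SD, n = 2 each), a log2 difference of 0.76 ± 0.17 (SE; edgeR adjusted p = 0.107). It passed in limma-voom (0.79, adjusted p = 0.0277), in edgeR with no filter on low counts (0.75, adjusted p = 0.0332) and in edgeR without WT muscle replicate 1 (0.92, adjusted p = 0.0282). Batf was 342 ± 47.0 CPM in Tg and 216 ± 8.54 CPM in WT, a log2 difference of 0.66 ± 0.18 (edgeR adjusted p = 0.199, and 0.0204 with no filter). Each Tg library lay above each WT library for Fosl2, Batf, Maff and Fosl1, and below each WT library for Jun. With 2 libraries per group such a separation is weak evidence, and its share over all genes was not computed. The values of Fosl1 rest on 8 to 11 counts per muscle Treg library, and those of Maff on 8 to 27.

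Junb differed by 0.03 (95% interval -0.35 to 0.40, edgeR adjusted p = 0.985) and Fos by -0.07 (-0.39 to 0.25, edgeR adjusted p = 0.942). Jun was 189 ± 12.4 CPM in Tg and 252 ± 29.4 CPM in WT muscle Tregs, a difference of -0.40 (95% interval -0.90 to 0.11, edgeR adjusted p = 0.686). The remaining intervals were wider, from -0.40 to 0.95 for Fosb to -1.35 to 2.33 for Maff.

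**Figure D4:**
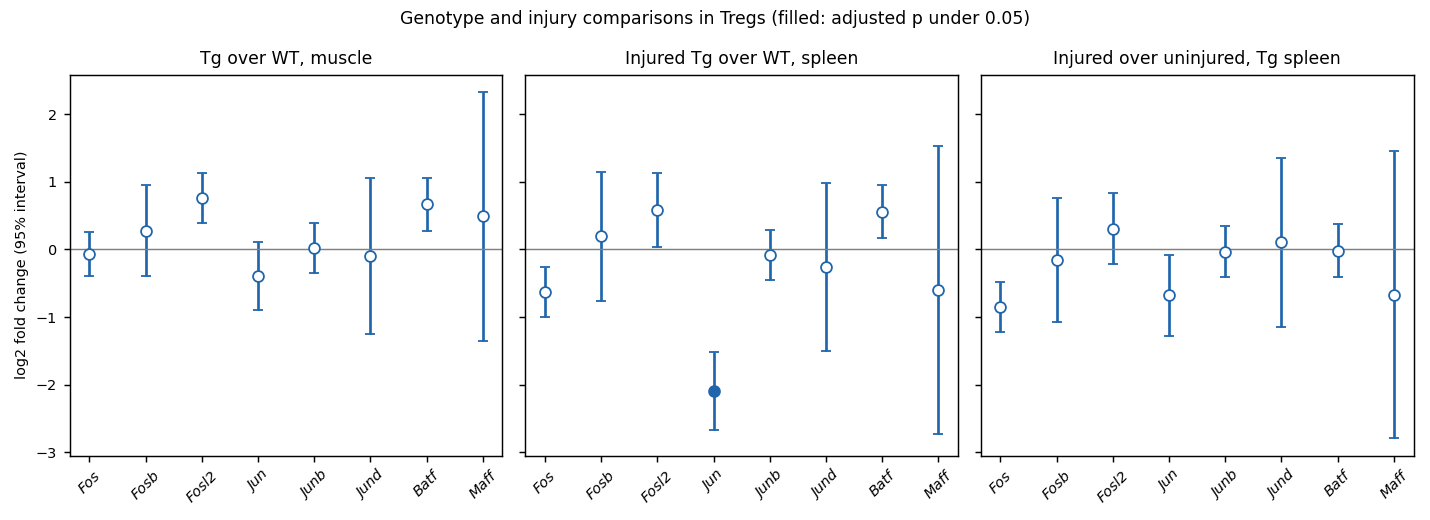
log2 fold change with its 95% interval for 8 members in Tg over WT muscle Tregs, injured Tg over WT spleen Tregs, and injured over uninjured Tg spleen Tregs. Atf3 is left out because its spleen counts were at or near 0. The single filled point, past an adjusted p of 0.05, is Jun in injured Tg over WT spleen at -2.09.

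Jun was the member that differed between genotypes in spleen. In injured Tg against WT spleen Tregs, 1 of 9 members passed, with 1.3% of all genes called in either direction and 0.417% called lower. Jun was lower, at 19.5 ± 4.56 CPM in injured Tg and 83.6 ± 14.2 CPM in WT spleen Tregs, a log2 fold change of -2.09 ± 0.27 (edgeR adjusted p = 0.00125). Uninjured Tg spleen Tregs, which were not tested against WT, had 30.9 ± 13.2 CPM. Fos was 33.2 ± 4.85 CPM in injured Tg and 50.8 ± 7.03 CPM in WT, at -0.63 ± 0.17 (edgeR adjusted p = 0.104, and 0.0244 with no filter). Fosl2 was at 0.58 ± 0.26 (edgeR adjusted p = 0.418) and Batf at 0.56 ± 0.18 (edgeR adjusted p = 0.209), while Junb was at -0.08 (95% interval -0.45 to 0.29). Genotype, gate and, as far as only the design text gives it, injury state of the WT spleen cannot be told apart here.

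Injury of the muscle was compared in Tg spleen Tregs, where edgeR called 0 members and 0% of all genes. DESeq2 and limma-voom also called 0 members, 2 had an unadjusted p under 0.05, and edgeR with no filter called 1. Fos had 36.6 and 29.8 CPM in injured Tg and 60.3 and 57.4 CPM in uninjured Tg spleen Tregs. The groups did not overlap, and the log2 fold change was -0.85 ± 0.17 (unadjusted p = 0.000174, edgeR adjusted p = 1, and 0.00935 with no filter). Jun was at -0.68 ± 0.28 (unadjusted p = 0.0281, edgeR adjusted p = 1), and its libraries overlapped. Junb was at -0.03 (95% interval -0.41 to 0.34) and Batf at -0.02 (-0.41 to 0.37). The injured libraries also lay above the uninjured ones for Fosl2 and below them for Maff, and neither gene passed. A separation of 2 libraries from 2 is weak evidence, also for Fos, and its share over all genes was not computed.

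Whether the gap between muscle and spleen itself differed between genotypes was tested as the difference of the log2 folds, Tg minus WT. Of 9 members 0 passed in edgeR, 2 had an unadjusted p under 0.05, DESeq2 called 1 and limma-voom 0, and edgeR called 0.136% of genes (0.0531% higher, 0.0834% lower). Jun had the largest such difference relative to its error, 1.70 ± 0.35 (95% interval 0.94 to 2.46, unadjusted p = 0.000302, edgeR adjusted p = 0.111). It passed with DESeq2 (1.71, adjusted p = 0.00204), in edgeR with no filter (1.67, adjusted p = 2.28e-06), without WT muscle replicate 1 (1.75, edgeR adjusted p = 0.0345) and without uninjured Tg spleen replicate 2 (1.69, edgeR adjusted p = 0.0451). In spleen the Tg level of Jun was below the WT level, as given above, while the muscle levels of the genotypes lay closer together. Fos differed by 0.56 ± 0.23 (95% interval 0.07 to 1.05, edgeR adjusted p = 0.563), Fosl2 by 0.18 (-0.48 to 0.85), Junb by 0.11 (-0.42 to 0.63) and Batf by 0.11 (-0.45 to 0.66). The interaction shares its libraries with the comparisons above and is no separate evidence for them.

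In whole muscle 8 days after injury the order of members was another. Jun led with 24.1 ± 5.75 CPM per kb in Tg and 24.7 ± 2.65 in WT muscle (SD, n = 3 each), followed by Junb with 12.7 ± 1.24 in Tg and 8.91 ± 3.65 in WT. Libraries of Junb overlapped those of Fos (8.74 ± 5.53 CPM per kb) in Tg, and those of Atf3 (7.28 ± 2.89) and Fos (5.45 ± 2.52) in WT. The 10-gene sum was 160 ± 40.0 CPM in Tg and 146 ± 18.5 CPM in WT muscle. Batf was at or below 1.37 CPM in all 6 libraries, and the 6 Treg markers summed to 9.38 to 12.0 CPM in Tg and 7.06 to 13.4 CPM in WT muscle. Fosb and Maff were at or below 0.923 CPM, and Fosl1 at or below 2.17 CPM.

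Tg and WT whole muscle were then compared, and 0 of 6 members tested passed, 0 had an unadjusted p under 0.05, and 0.0323% of 12377 genes were called. DESeq2 and limma-voom also called 0 members. Jun had 57.4, 93.8 and 79.0 CPM in Tg and 70.6, 78.4 and 87.5 CPM in WT muscle, a log2 fold change of -0.06 ± 0.17 (95% interval -0.43 to 0.31, edgeR adjusted p = 0.994). Junb had 30.3, 31.2 and 25.9 CPM in Tg and 10.9, 24.3 and 26.3 CPM in WT, at 0.49 ± 0.27 (95% interval -0.07 to 1.06, edgeR adjusted p = 0.994). Fos had 13.8, 35.5 and 12.3 CPM in Tg and 6.08, 17.3 and 15.1 CPM in WT, at 0.68 ± 0.43 (95% interval -0.24 to 1.60, edgeR adjusted p = 0.994).

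Atf3, which was near 0 in spleen Tregs, had 9.86, 18.2 and 10.7 CPM in Tg and 22.9, 11.6 and 12.6 CPM in WT whole muscle, at -0.32 ± 0.34 (95% interval -1.04 to 0.40, edgeR adjusted p = 0.994). Fosl2 was at 0.20 ± 0.28 and Jund at 0.19 ± 0.74. The groups overlapped for each of these genes. Macrophage and monocyte markers summed to 1651 to 2132 CPM in Tg and 575 to 1655 CPM in WT whole muscle, and their part in the AP-1 values was not tested.

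Around the members, other bZIP factors split. Of 19 tested, 5 were higher and 1 lower in each of the 2 muscle against spleen comparisons, with median log2 fold changes of 0.30 in Tg and 0.38 in WT. Over all genes tested, 4.83% were higher and 2.55% lower in Tg, and 9.38% higher and 6.87% lower in WT. Crem, a cyclic AMP response factor with inducible repressor forms, was higher by 3.44 ± 0.20 in Tg and 3.36 ± 0.20 in WT (edgeR adjusted p = 7.54e-08 and 1.30e-07). Nfil3, a bZIP repressor, was higher by 3.48 ± 0.73 in Tg and 3.63 ± 0.78 in WT (edgeR adjusted p = 0.0265 and 0.0168). Maf, a large Maf factor that drives Il10 in T cells, was higher by 0.76 ± 0.16 in Tg and 1.65 ± 0.17 in WT (edgeR adjusted p = 0.00871 and 1.28e-05). Bach2, a repressor that competes with AP-1 for its sites and keeps T cells quiescent, was lower, at -3.38 ± 0.64 in Tg and -2.93 ± 0.55 in WT (edgeR adjusted p = 0.00865 and 0.00499). Xbp1 and Creb1 did not pass, with 0.24 and 0.30 in Tg and 0.03 and 0.38 in WT.

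Genes upstream of AP-1, the MAP kinases and the factors that act with serum response factor, were tested as a list of 21. In Tg 3 were higher and 1 lower, where 4.83% of all genes were higher and 2.55% lower, and in WT 2 were higher and 1 lower, where 9.38% were higher and 6.87% lower, with medians of 0.22 in Tg and 0.16 in WT. Map2k3, a kinase of the p38 branch, was higher by 1.75 ± 0.15 in Tg and 1.90 ± 0.16 in WT (edgeR adjusted p = 3.80e-06 and 1.67e-06). Map2k1, a kinase of the ERK branch, was higher by 0.94 ± 0.18 in Tg and 0.61 ± 0.18 in WT (edgeR adjusted p = 0.00477 and 0.035). Elk4, a partner of serum response factor, was lower, at -0.89 ± 0.17 in Tg and -1.11 ± 0.17 in WT (edgeR adjusted p = 0.00334 and 0.000356). Map3k1 and Map2k2 did not pass, with 0.04 and -0.33 in Tg and 0.18 and 0.16 in WT.

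Factors that bind beside AP-1 at composite sites were tested as a list of 8, with 2 higher and 0 lower in Tg, and 3 higher and 1 lower in WT. All genes tested had 4.83% higher and 2.55% lower in Tg, and 9.38% higher and 6.87% lower in WT. Irf4, the partner of Batf, was higher by 1.99 ± 0.19 in Tg and 2.31 ± 0.19 in WT (edgeR adjusted p = 9.51e-06 and 2.18e-06). Runx3 was higher by 0.75 ± 0.20 in Tg and 2.09 ± 0.21 in WT (edgeR adjusted p = 0.0298 and 1.24e-05). Nfatc2, which forms a complex with Fos and Jun, was at 0.57 ± 0.17 in Tg (edgeR adjusted p = 0.0593) and higher by 0.75 ± 0.18 in WT (edgeR adjusted p = 0.00966). Nfatc3 was at -0.28 in Tg (edgeR adjusted p = 0.538) and lower in WT, at -0.83 ± 0.23 (edgeR adjusted p = 0.0258). Ets1 and Nfatc1 did not pass in either comparison.

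Of 18 textbook targets of AP-1, 11 were tested. In each comparison 5 were higher and 1 lower, with medians of 1.10 in Tg and 0.51 in WT. The 1 that was lower is not among the genes named here. Among all genes tested, 4.83% were higher and 2.55% lower in Tg, and 9.38% higher and 6.87% lower in WT. Mmp13, Timp1, Il2 and Csf2 had no counts in Tg muscle Tregs, and Mmp3 and Csf2 had none in WT muscle Tregs. Il10, an anti-inflammatory cytokine, was higher by 5.92 ± 0.43 in Tg and 4.99 ± 0.39 in WT (edgeR adjusted p = 3.51e-06 and 4.61e-06). Ctla4, an inhibitory receptor of Tregs that is also on the list of Treg markers above, was higher by 2.25 ± 0.14 in both comparisons (edgeR adjusted p = 1.66e-07 in Tg and 1.86e-07 in WT). Vim, an intermediate filament protein, was higher by 1.17 ± 0.19 in Tg and 2.22 ± 0.20 in WT (edgeR adjusted p = 0.00208 and 1.33e-05). Mmp9, a matrix protease, was at 2.27 ± 0.84 in Tg (edgeR adjusted p = 0.209) and higher by 4.03 ± 0.97 in WT (edgeR adjusted p = 0.0445). Tnf was higher by 1.10 ± 0.25 in Tg (edgeR adjusted p = 0.0128) and did not pass in WT (0.51, edgeR adjusted p = 0.183). Tgfb1 did not pass in either, with 0.65 ± 0.39 in Tg and 0.26 ± 0.40 in WT (edgeR adjusted p = 0.382 and 0.724). No test here links these genes to the members.

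**Figure D5:**
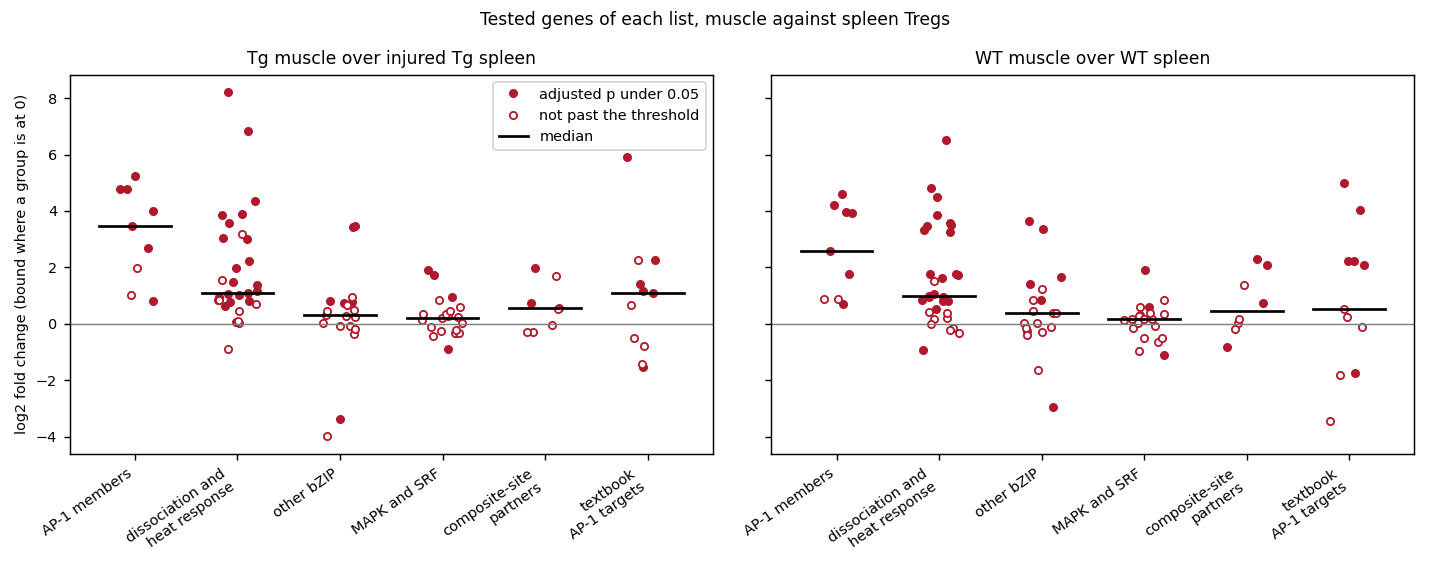
log2 fold change of every tested gene of the members and of 5 lists of related genes, for Tg muscle over injured Tg spleen (left) and WT muscle over WT spleen Tregs (right), with a gene at its bound where a whole group had 0 counts. Filled points passed an adjusted p of 0.05 and bars mark medians, which are 3.48 and 2.60 for the members, 1.11 and 1.00 for dissociation and heat response genes, and between 0.16 and 1.10 for the other 4 lists.

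The genes whose levels ran most like each member over the 10 Treg libraries were found by the root mean square difference of centred log2 CPM among 7299 genes, where 0 means the same profile. Fos was closest to Ppp1r15a, a stress-induced phosphatase subunit (0.40), and Dusp1, a MAP kinase phosphatase (0.51). Fosb was closest to Crem (0.41) and Gadd45b (0.42), and Fosl2 to Rgs2, a brake on G protein signalling (0.48), and Ctla2a (0.52). Junb ran closest to Csrnp1 (0.20) and Tgif1 (0.24), and Batf to Grb2, an adaptor of receptor signalling (0.12), and Gata3, a T cell lineage factor (0.15). Atf3 was closest to Rgs2 (0.46) and Gem (0.73). Jun was closest to Vps37b and Csrnp1, both at 0.68. Ppp1r15a, Dusp1 and Gadd45b are also on the dissociation and heat response list. Among the members themselves, Fosl2 and Atf3 (0.54), Fos and Fosb (0.54) and Fos and Fosl2 (0.56) were the nearest of those that were higher in muscle. Atf3 had 0 counts in 5 of the 6 spleen libraries, so its distances depend on the offset added to a count of 0. The profiles share libraries and depth, and the distances are descriptions with no test. Levels were centred but not scaled, so a distance also depends on how widely a gene varies. Values of different members, such as Batf and Jun, therefore do not rank how close their matches are.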

How the data were processed

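RNA was measured by sequencing in 10 Treg and 6 whole muscle libraries. The deposited table holds raw read counts per gene symbol; per the submitters' processing notes, the authors used STAR 2.5.4 and featureCounts with build mm10 (GRCm38), and the annotation and strand setting were not given in the sources used here. cDNA was primed with oligo(dT) and libraries were made by transposon tagging, per the labels' protocols, which marks no strand. Levels are counts divided by the library total (CPM). Fold changes and tests used edgeR 4.0.16 in R 4.3.3 (filterByExpr, TMM, robust quasi-likelihood fit, Benjamini-Hochberg adjustment over all genes, threshold 0.05): 1 fit of the 10 Treg libraries (13188 genes, 5 residual degrees of freedom) and 1 of the 6 whole muscle libraries (12377 genes, 4 degrees of freedom). The scripts were tested on simulated data. Alternatives used DESeq2 1.42.0, limma-voom 3.58.1, other scaling and filters, thinning, smaller fits, a replicate block and leaving out each library. Members, lists and tests were chosen with earlier results of these data known. All 10 members are named; of other lists, up to 4 called genes with the largest WT fold and up to 2 uncalled genes of highest level. Gene positions and exon lengths come from GENCODE. A chi-square test of counts between libraries of a group gave 5.47 to 28.9 per degree of freedom, and no library was treated as a duplicate. The value was 28.9 in WT muscle Tregs and at most 9.02 in the other groups.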

Additional observations from a re-analysis of the deposited data

How the results depend on the processing

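The replicate block left the members called higher at 7 in each muscle against spleen comparison. Deviations from the group mean correlated between libraries of the same replicate number at -0.042 to 0.094 in Tregs and -0.026 to -0.0048 in whole muscle. With 2 Treg libraries per group, both replicate numbers of a pair of groups give the same value. These correlations cannot show whether libraries of the same number came from the same mice or batch. With the block the genes called in whole muscle were 2 in place of 4. Members called in Tg against WT muscle numbered 2 with no filter, 1 with limma-voom and 0 to 1 with 1 library left out. In injured Tg against WT spleen the count was 2, and in injured against uninjured Tg spleen 1, with no filter. For the difference of tissue effects it was 1 with no filter and with DESeq2, and 0 to 1 with 1 library left out. Of 1022 member values under alternatives, 967 kept direction and call, 5 lost the call, 10 gained it, 38 changed sign and 2 became 0. None of those 40 passed the test before or after. Lost and gained calls concerned Batf, Fosl2, Fos and Jun, and their values stand in the report beside each gene.

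Sign changes when counts were thinned were Jund in Tg against WT muscle (0.11), Jund in injured against uninjured spleen (-0.29) and Batf there (0.0084). With 1 library left out, log2 values that changed sign ranged, in Tg against WT muscle, from -0.28 to 0.10 for Fos, -0.13 to 0.80 for Fosb, -0.18 to 0.25 for Junb and -0.31 to 0.14 for Jund. In injured Tg against WT spleen they ranged from -0.17 to 0.48 for Fosb, -0.37 to 0.17 for Junb and -0.54 to 0.020 for Jund. In injured against uninjured Tg spleen they ranged from -0.52 to 0.24 for Fosb, -0.33 to 0.21 for Junb, -0.27 to 0.64 for Jund and -0.24 to 0.17 for Batf. Atf3 did not change sign in either of these spleen comparisons and ranged from 0 to 5.27 in each. For the difference of tissue effects they ranged from -0.33 to 0.60 for Fosb, -0.15 to 0.39 for Junb, -0.13 to 0.43 for Jund, -0.14 to 0.32 for Batf and -4.97 to 0.30 for Atf3. The fitted values of Atf3 depend on the prior count, since 5 of the 6 spleen libraries had 0 counts of it. Its value of 0.30 came from leaving out injured Tg spleen replicate 1, the only spleen library with Atf3 counts. In whole muscle they ranged from -0.0086 to 0.94 for Fos, -0.25 to 0.14 for Jun and -0.67 to 0.10 for Atf3. The cause was not tested.

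Counts of all genes called, which set the background, moved more than the members did. In Tg muscle against injured Tg spleen 973 became 452 to 1466 with 1 library left out, lowest without injured Tg spleen replicate 2 and highest without WT muscle replicate 1. In WT muscle against WT spleen 2143 became 887 without WT spleen replicate 2, 1347 without WT muscle replicate 2 and 1046 with only the compared groups. In Tg against WT muscle 42 became 195 with no filter, 103 with DESeq2, 10 with only the compared groups and 25 to 361 with 1 library left out (361 without WT muscle replicate 1). In injured Tg against WT spleen 172 became 372 with no filter, 304 with DESeq2, 338 with only the compared groups and 57 to 331 with 1 library left out. The difference of tissue effects had 18, which became 140 with no filter, 62 with DESeq2 and 3 to 241 with 1 library left out. Injured against uninjured Tg spleen had 5 and whole muscle 11 with no filter. Fosl1, Jund and Maff had means under 10 CPM in muscle Tregs, and the part of depth in their missing calls was not tested.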
